A study of Mus musculus with 3 samples.

Results

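Jun, Junb, Jund, Fos, Fosb, Fosl2, Atf3, Egr1, Ier2 and Nr4a1 are genes of the immediate early response and of AP-1, and they were taken by symbol as 10 of the 32285 gene rows that each library holds. They were measured by droplet single-cell RNA sequencing in peripheral blood mononuclear cells (PBMCs) of C57BL/6 mice, which the study's methods give as female. The question was how these genes differed with age and with Glycyrrhizic acid (GA), a compound of licorice root. The young library came from mice of 8 weeks and the aged library from mice of 16 months, and the labels list no treatment for either. The aged-GA library came from mice of 16 months given GA for 1 month, which the study's methods describe as injections into the tail vein, with phosphate-buffered saline injected into a control group. Young mice were bought from a supplier and aged mice were bred in the laboratory, so age and origin cannot be told apart. PBMCs of several mice per group went into 1 library, and the files used here do not tie a cell to a mouse, so no difference between libraries was tested and no spread between animals can be given.

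Immediate early genes are transcribed within minutes of a signal, from factors that already lie in the cell, and their mRNAs are short-lived. The proteins of the Jun and Fos families pair through leucine zippers into AP-1, a transcription factor that binds the DNA of many activation genes, and Atf3 can take the place of a partner in such pairs. In lymphocytes these genes answer signals from the antigen receptor, cytokines and stress, and in blood they are also known to respond to the handling of cells.

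Levels are given as unique molecular identifiers (UMIs) of a gene per 1000000 UMIs of the gated cells, written CPM. Cells were gated by markers into B cells (2266 young, 4002 aged and 5354 aged-GA cells), T cells (5249, 2001 and 3315 cells), NK cells (303, 231 and 242 cells), monocytes (52, 1095 and 279 cells) and neutrophils (14, 777 and 513 cells). All markers of each gate (6 for B cells, 5 for T cells, 7 for NK cells, 10 for monocytes and 7 for neutrophils) had UMIs in that gate in each library. Intervals in the text are exact 95% intervals for counting error only. A log2 ratio compares the CPM of 2 libraries, and counts of genes take those whose levels differed by at least 1.5-fold, while higher and lower said of 1 gene give only the order of its values. The libraries held 58894294 to 98155671 UMIs, and the cells of the 3 lymphocyte gates had median depths of 3042 to 5804 UMIs. From 50 to 62 cell barcodes were shared by any pair of libraries. The libraries differed too in free RNA, that is, RNA outside cells that enters droplets. In barcodes of red cells, which hold over 50% globin, the summed level of the myeloid genes Lyz2, S100a8 and S100a9 was 93.4, 10004 and 3441 CPM of non-globin UMIs in the young, aged and aged-GA libraries, and in B cells it was 7.82, 369 and 197 CPM. The median mitochondrial share of B cells was 5.58%, 3.56% and 4.83% in the same order.

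The sequences before the start sites of Jun, Junb, Fos, Fosb and Nr4a1 are printed as examples. The aged B-cell level lay below the young one for the first 4 (log2 ratios of -0.86, -1.34, -0.49 and -0.49) and above it for Nr4a1 (0.56), of which only those of Jun and Junb passed 1.5-fold. Jund (-0.63, past 1.5-fold), Atf3 (-0.37) and Fosl2 (-0.32) were also lower in aged B cells, and their sequences are not printed. The printed sequences are the 250 bases before the RefSeq start on GRCm38.p6, written in the direction of the gene: Jun (chr4:95052223-95052472, minus strand), Junb (chr8:84978749-84978998, minus strand), Fos (chr12:85473640-85473889, plus strand), Fosb (chr7:19310046-19310295, minus strand) and Nr4a1 (chr15:101266596-101266845, plus strand). Capitals mark TGACG, a half-site of the cAMP response element, on either strand (in Nr4a1 it reads CGTCA, since all its matches lie on the other strand). They also mark TGACNTCA, a pattern that takes in a variant AP-1 site and, where N is G, the full cAMP response element.
Jun: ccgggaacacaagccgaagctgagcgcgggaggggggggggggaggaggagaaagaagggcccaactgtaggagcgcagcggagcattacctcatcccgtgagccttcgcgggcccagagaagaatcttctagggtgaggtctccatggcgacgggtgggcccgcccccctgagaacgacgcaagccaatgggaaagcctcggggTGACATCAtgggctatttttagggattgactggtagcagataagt
Junb: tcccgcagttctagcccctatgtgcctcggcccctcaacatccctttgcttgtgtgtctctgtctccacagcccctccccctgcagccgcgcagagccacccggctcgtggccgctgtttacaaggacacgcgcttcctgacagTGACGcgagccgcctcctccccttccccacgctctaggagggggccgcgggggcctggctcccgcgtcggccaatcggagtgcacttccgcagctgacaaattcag
Fos: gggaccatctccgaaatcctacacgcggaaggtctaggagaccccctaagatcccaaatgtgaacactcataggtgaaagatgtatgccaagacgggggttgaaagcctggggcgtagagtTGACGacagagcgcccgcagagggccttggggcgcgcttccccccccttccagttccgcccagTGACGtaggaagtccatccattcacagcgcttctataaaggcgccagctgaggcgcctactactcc
Fosb: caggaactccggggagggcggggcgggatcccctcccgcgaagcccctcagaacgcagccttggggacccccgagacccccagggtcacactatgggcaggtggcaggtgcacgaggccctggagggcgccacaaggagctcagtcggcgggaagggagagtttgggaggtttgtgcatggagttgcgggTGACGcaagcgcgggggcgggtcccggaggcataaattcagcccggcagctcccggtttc
Nr4a1: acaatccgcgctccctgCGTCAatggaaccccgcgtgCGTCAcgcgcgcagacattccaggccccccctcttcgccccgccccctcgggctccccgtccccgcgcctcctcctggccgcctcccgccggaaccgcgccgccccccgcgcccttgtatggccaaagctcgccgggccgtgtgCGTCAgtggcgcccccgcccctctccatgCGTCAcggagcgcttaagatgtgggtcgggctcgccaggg
RefSeq promoters were matched for 8 of the 10 genes, with none for Egr1 and Ier2. TGACG was found on either strand in 5 of the 8 (Junb, Fos, Fosb, Atf3 and Nr4a1), against 17.8% of 32851 promoters of the same length. Nr4a1 had 4 matches, which began 233, 213, 69 and 40 bases before the start. Fos had matches 129 and 66 bases before the start, Junb 106 bases and Fosb 60 bases before it. TGACNTCA, which overlaps TGACG where N is G, was found in Jun alone (as TGACATCA), 45 bases before the start. Of all promoters 7.49% held it, with any base at N. The windows of Jund and Fosl2 held neither pattern, and no link between patterns and levels was tested. TGANTCA, a pattern that takes in AP-1 sites, and the serum response element were in none of the 8 windows, against 6.75% and 1.47% of all promoters. Each window held only the 250 bases before the start, so sites farther upstream were not searched. Ier2 (chromosome 8, 84661331 to 84662852, minus strand, GRCm38) lies on the same chromosome as Junb (84974484 to 84978718, minus strand) and Jund (70698949 to 70700616, plus strand). Exons of a gene on the opposite strand overlap Jun (Junos, 232 bases), Junb (Prdx2, 173 bases) and Jund (Gm11175, 877 bases), and the sources used here do not state the strand setting of the counts, so a share of such reads cannot be told apart.

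**Figure D1:**
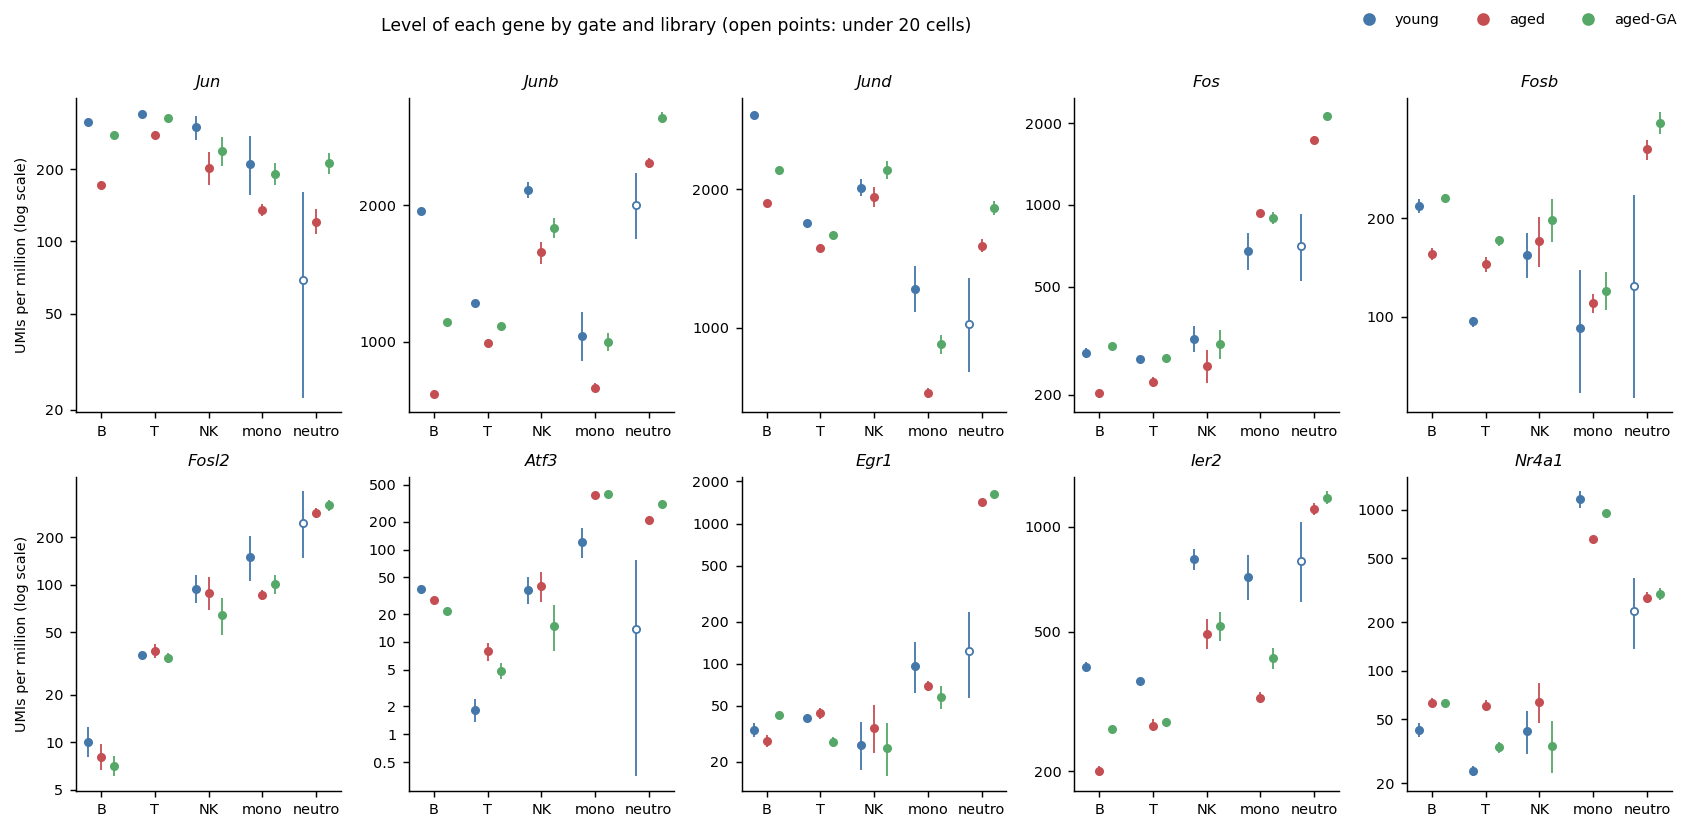
CPM (log scale) of each of the 10 genes in B cells, T cells, NK cells, monocytes and neutrophils of the young, aged and aged-GA libraries, with exact 95% Poisson intervals of counting error. Open points are gates under 20 cells (14 young neutrophils). Egr1 stood between 25.1 and 124 CPM everywhere but in aged and aged-GA neutrophils, where it was 1417 and 1638 CPM.

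The Jun family was lower in aged than in young B cells, and Junb differed most. Junb, which in lymphocytes often restrains Jun and partners Batf, was at 1937, 767 and 1108 CPM in young, aged and aged-GA B cells. Its log2 ratio was -1.34 (interval -1.37 to -1.30) for aged over young, which 0.501% of all genes that passed the minimum lay below, and 0.53 (0.50 to 0.56) for aged-GA over aged. The aged library was thus the lowest of the 3, and the level in aged-GA B cells lay between the other two. Jun, the founding member of AP-1, had the same order in B cells, with 313, 172 and 278 CPM. Its log2 ratios were -0.86 (-0.94 to -0.78) and 0.69 (0.62 to 0.76). Jund, a family member that most cells hold at a steady level, was at 2906, 1872 and 2202 CPM, a log2 ratio of -0.63 (-0.66 to -0.61) for aged over young and 0.23 (0.21 to 0.26) for aged-GA over aged. None of the 3 intervals in B cells overlapped between libraries for any of the 3 genes.

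The share of B cells with a Junb UMI showed the same order at equal depth. After each cell was thinned to 1000 UMIs, 80.4% of young (78.7 to 82.0%), 49.2% of aged (47.6 to 50.7%) and 59.2% of aged-GA B cells (57.9 to 60.5%) held one. Without thinning, at median depths of 3393, 3060 and 3764 UMIs, the shares were 98.1%, 81.6% and 90.8%. The order of the libraries was thus the same for the Junb level of B cells and for the share of B cells with a UMI. In red-cell barcodes, thinned alike from median depths of 5193 to 9714 UMIs, 3.74% to 6.02% held a Junb UMI, and most of their UMIs were globin. Their Junb level was 620, 826 and 970 CPM of non-globin UMIs in young, aged and aged-GA, against 1937, 767 and 1108 CPM in B cells. Jund in red-cell barcodes had the order of B cells, with 2954, 2331 and 2585 CPM of non-globin UMIs. The part of free RNA in the B-cell values was not tested.

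In T cells the Jun family differed less. Jun was at 338, 277 and 327 CPM in young, aged and aged-GA T cells, with log2 ratios of -0.28 (-0.35 to -0.22) and 0.24 (0.18 to 0.30). Junb was at 1219, 992 and 1082 CPM, and Jund at 1687, 1493 and 1595 CPM. In the whole gate the aged library was again the lowest for all 3 genes, with differences under 1.5-fold. By markers, naive cells were 1768 of 5249 young and 248 of 2001 aged T cells, and memory cells 534 and 1007. For aged over young, the log2 ratio of Jun was -0.14 (-0.30 to 0.02) in naive and -0.31 (-0.45 to -0.17) in memory T cells. That of Junb was -0.25 and -0.29. That of Jund was -0.16 (-0.23 to -0.09) in naive but 0.18 (0.12 to 0.23) in memory T cells. In naive T cells Jund was lowest in aged-GA (1685 CPM, 1748 CPM in aged). In NK cells Jun was at 298, 202 and 237 CPM and Junb at 2160, 1573 and 1783 CPM, in the same order, whereas Jund was at 2017, 1924 and 2203 CPM with a log2 ratio of -0.07 (-0.16 to 0.03) for aged over young. In both myeloid gates the aged-GA level of each Jun family gene lay above the aged level. Jun was at 121 and 211 CPM in aged and aged-GA neutrophils, a log2 ratio of 0.81 (0.58 to 1.04), and at 135 and 191 CPM in monocytes, where it was 0.50 (0.32 to 0.67). By the markers given below, most aged monocytes were classical and most aged-GA ones nonclassical. Within nonclassical cells the log2 ratio was 0.13 (-0.11 to 0.36) for Jun and 0.08 (-0.04 to 0.19) for Jund. Within classical cells it was 0.36 (0.08 to 0.64) and 0.39 (0.28 to 0.50).

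Within the Fos family, Fos and Fosb were lowest in the aged library in B cells, as Jun was. Fos, the partner of Jun in the classical AP-1 pair, was at 284, 203 and 303 CPM in young, aged and aged-GA B cells, with log2 ratios of -0.49 (-0.57 to -0.41) and 0.58 (0.52 to 0.64). Fosb was at 218, 155 and 231 CPM, with log2 ratios of -0.49 (-0.58 to -0.40) and 0.58 (0.51 to 0.65). For both genes the aged library was low and the aged-GA level was slightly above the young one. UMIs counted at the 3′ end do not separate the full Fosb transcript from its shorter forms.

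In the whole T-cell gate Fos and Fosb differed in direction between young and aged. Fos was at 270, 223 and 274 CPM in young, aged and aged-GA T cells. For aged over young its log2 ratio was -0.28 (-0.35 to -0.21). By subset it was -0.59 (-0.69 to -0.48) in CD8 and -0.44 (-0.57 to -0.30) in memory T cells. In CD4 and naive T cells the interval included 0, with -0.01 (-0.15 to 0.13) and 0.05 (-0.14 to 0.24). Fosb was at 96.8, 145 and 171 CPM in young, aged and aged-GA T cells, with log2 ratios of 0.58 (0.49 to 0.67) for aged over young and 0.24 (0.15 to 0.33) for aged-GA over aged. Fosb in red-cell barcodes had the same order, with 62.2, 133 and 148 CPM of non-globin UMIs, and the part of free RNA in the T-cell values was not tested. In T cells without any Lyz2, S100a8 or S100a9 UMI the log2 ratios of Fosb were 0.67 and 0.21. The higher level in aged than in young T cells was seen in each T-cell subset, with 84.3 and 113 CPM in young and aged naive T cells, 109 and 148 CPM in memory T cells, 86.9 and 160 CPM in CD4 T cells and 108 and 137 CPM in CD8 T cells. The median of all genes was also above 0, at 0.38 in T cells. Relative to that median in each set of cells, Fosb was 0.20 in T cells, 0.20 in naive, 0.09 in memory, 0.51 in CD4 and 0.01 in CD8 T cells. Among the 5 gates of the aged and of the aged-GA library, Fos and Fosb were both highest in neutrophils. Fos was at 1736 and 2120 CPM in aged and aged-GA neutrophils, and Fosb at 324 and 389 CPM. At 1000 UMIs per cell, 76.6% of aged and 79.0% of aged-GA neutrophils held a Fos UMI, against 17.6% and 24.5% of B cells and 1.86% and 2.46% of red-cell barcodes. Most UMIs of red-cell barcodes were globin, which lowers that share. Their Fos level was 334 and 332 CPM of non-globin UMIs in aged and aged-GA, against 203 and 303 CPM in B cells. The part of free RNA in the B-cell values was not tested. Without thinning, at median depths of 2238 and 2453 UMIs in neutrophils and 3060 and 3764 UMIs in B cells, the shares were 92.4% and 94.2% of neutrophils and 43.1% and 59.3% of B cells. Fosl2, a Fos-related subunit that lacks the strong activation domain of Fos, differed more between gates than between libraries. It was at 7.11 to 10.1 CPM in B cells, 34.5 to 38.0 CPM in T cells, 63.9 to 94.0 CPM in NK cells, 86.2 to 149 CPM in monocytes and 287 to 320 CPM in aged and aged-GA neutrophils, while its intervals for both log2 ratios included 0 in each lymphocyte gate.

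Atf3, a stress-induced factor that often represses its targets, was highest in the myeloid gates of the aged and aged-GA libraries. It was at 121, 387 and 397 CPM in young, aged and aged-GA monocytes, and at 209 and 314 CPM in aged and aged-GA neutrophils. The 14 young neutrophils had 1 UMI of it (13.8 CPM), below the level of young B cells. In B cells it was at 37.1, 28.7 and 21.5 CPM, so the aged-GA library was the lowest there, with log2 ratios of -0.37 (-0.59 to -0.16) and -0.42 (-0.61 to -0.23). In T cells it was at 1.82, 7.87 and 4.87 CPM in young, aged and aged-GA cells, a log2 ratio of 2.11 (1.58 to 2.65) for aged over young and -0.69 (-1.13 to -0.25) for aged-GA over aged. Red-cell barcodes held Atf3 in the same order as T cells, with 0 UMIs in young (a limit of 2.39 CPM of non-globin UMIs, for 3 counts), against 42.1 and 22.5 CPM in aged and aged-GA, and the part of free RNA in the T-cell values was not tested. In T cells without any Lyz2, S100a8 or S100a9 UMI the log2 ratio was 1.65 for aged over young and 0.08 for aged-GA over aged. In aged T cells there were 7.75 Atf3 UMIs per 100 Lyz2 UMIs, against 1.86 in aged monocytes, 4.11 in aged neutrophils and 3.51 in aged red-cell barcodes. In aged-GA the value was 17.7 in T cells, 2.22 in monocytes, 7.61 in neutrophils and 6.50 in red-cell barcodes. In young T cells, which held 23 Lyz2 UMIs, it was 222. These values do not give the part of free RNA.

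Egr1, a zinc finger factor downstream of the MAP kinase ERK, was highest in neutrophils among the 5 gates of the aged and of the aged-GA library. It was at 1417 CPM (65.4% of cells with a UMI at 1000 UMIs per cell) in aged and 1638 CPM (68.7%) in aged-GA neutrophils. The 14 young neutrophils had 124 CPM. Monocytes had 96.7, 69.2 and 57.6 CPM, and from 3.61% to 7.84% of them held a UMI after thinning. Without it the shares were 78.8% and 82.1% in aged and aged-GA neutrophils and 13.5% to 26.8% in monocytes. Of thinned red-cell barcodes, 0.0718% to 0.857% held an Egr1 UMI, but most of their UMIs were globin, which lowers that share. In B cells Egr1 was at 33.6, 28.1 and 42.9 CPM, with log2 ratios of -0.26 (-0.48 to -0.03) and 0.61 (0.44 to 0.78). In T cells it was at 41.1, 44.4 and 27.7 CPM, with log2 ratios of 0.11 (-0.05 to 0.27) and -0.68 (-0.86 to -0.50). By CPM the aged-GA library was thus the highest of the 3 in B cells and the lowest in T cells. At 1000 UMIs per cell, 2.83%, 1.40% and 2.15% of young, aged and aged-GA B cells held an Egr1 UMI. By share, young B cells were thus the highest. In T cells the shares were 3.72%, 3.65% and 2.81%, with aged-GA again the lowest. In red-cell barcodes Egr1 was at 26.3, 188 and 81.6 CPM of non-globin UMIs in young, aged and aged-GA. The aged and aged-GA values lay above those of monocytes (69.2 and 57.6 CPM). The part of free RNA in the lymphocyte and monocyte values was not tested.

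Ier2, a nuclear protein of the early growth factor response, was lower in the aged than in the young library in B cells, T cells, NK cells and monocytes. It was at 397, 200 and 263 CPM in young, aged and aged-GA B cells, with log2 ratios of -0.99 (-1.06 to -0.92) and 0.40 (0.33 to 0.46). In T cells it was at 362, 270 and 276 CPM, and in NK cells at 808, 494 and 519 CPM. Aged-GA over aged, the interval of the log2 ratio included 0 in both, with 0.03 (-0.04 to 0.10) in T cells and 0.07 (-0.13 to 0.27) in NK cells. In monocytes it was at 717, 324 and 421 CPM, a log2 ratio of -1.14 (-1.36 to -0.92) for aged over young. The 14 young neutrophils had 799 CPM, below the 1125 CPM of aged ones.

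Nr4a1 is a nuclear receptor that reports antigen receptor signals in lymphocytes and that nonclassical monocytes need. It was the only member with a log2 ratio above 0 in B cells for aged over young. It was at 43.0, 63.5 and 63.4 CPM in young, aged and aged-GA B cells, a log2 ratio of 0.56 (0.39 to 0.74) for aged over young and -0.00 (-0.12 to 0.12) for aged-GA over aged. For aged over young the median of all genes in B cells was also above 0, at 0.29, and 73.0% of genes lay below Nr4a1. In T cells it was at 23.9, 60.8 and 33.5 CPM, with log2 ratios of 1.35 (1.19 to 1.51) and -0.86 (-1.02 to -0.70). In NK cells it was at 42.1, 63.7 and 34.2 CPM, with log2 ratios of 0.60 (-0.02 to 1.22) and -0.90 (-1.60 to -0.22). The aged library was the highest in T and NK cells. Aged CD4 T cells had 81.2 CPM and aged CD8 T cells 33.1 CPM, against 25.2 and 18.6 CPM in young. Red-cell barcodes held Nr4a1 at 16.0, 161 and 76.8 CPM of non-globin UMIs, in the order of the T cells. In T cells without a Lyz2, S100a8 or S100a9 UMI the log2 ratios were 1.28 and -0.83, against 1.35 and -0.86 in all T cells. Those cells were 5096 of 5249 in young, 581 of 2001 in aged and 1508 of 3315 in aged-GA. In B cells chosen the same way (2203, 1307 and 2517 cells) the log2 ratios were 0.29 and 0.25, so the aged-GA level was then the highest. Cells chosen so can still hold other free RNA, and the part of free RNA in the lymphocyte values was not tested.

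**Figure D2:**
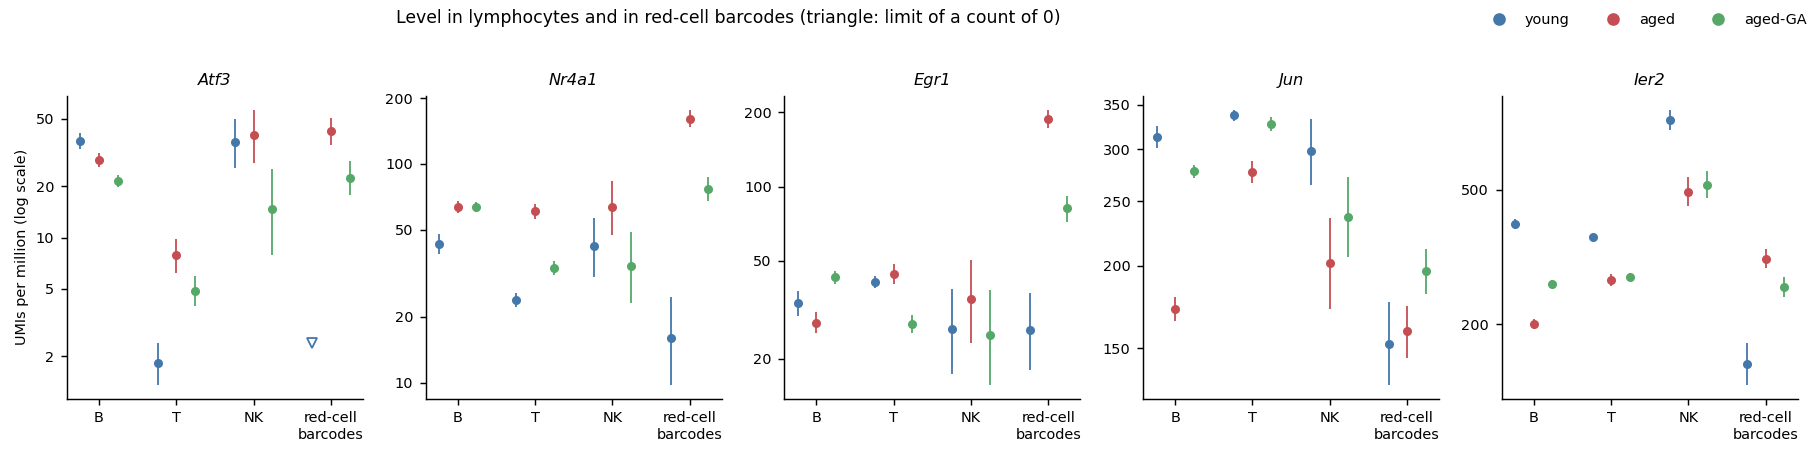
CPM (log scale) of Atf3, Nr4a1, Egr1, Jun and Ier2 in B cells, T cells and NK cells, and CPM of non-globin UMIs in red-cell barcodes, for the 3 libraries, with exact 95% Poisson intervals of counting error. The triangle is the limit for Atf3 in young red-cell barcodes, where no UMI was counted. Atf3, Nr4a1 and Egr1 were highest in the aged library among red-cell barcodes (42.1, 161 and 188), and Jun differed less there (152, 159 and 196 in young, aged and aged-GA).

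The monocyte gate held different cells in the 3 libraries. By markers, 48 of the 52 young monocytes were nonclassical (Ace, Cd300e and Adgre4) and 2 were classical (F13a1 and Fn1), against 419 and 643 of 1095 in aged and 179 and 90 of 279 in aged-GA. In the whole gate Nr4a1 was at 1160, 659 and 954 CPM in young, aged and aged-GA, with log2 ratios of -0.82 (-0.99 to -0.64) and 0.53 (0.46 to 0.61). Within nonclassical monocytes it was at 1237, 1685 and 1557 CPM, a log2 ratio of 0.45 (0.27 to 0.63) for aged over young and -0.11 (-0.20 to -0.03) for aged-GA over aged. In aged and aged-GA classical monocytes Nr4a1 was at 309 and 311 CPM. The direction of Nr4a1 between young and aged monocytes was opposite in the whole gate and in its nonclassical cells.

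Other members also took different values within the monocyte subsets. Fos was at 677 and 930 CPM in young and aged monocytes as a whole, but at 683 and 467 CPM in nonclassical ones, where its log2 ratio was -0.55 (-0.79 to -0.29). Classical monocytes carried more Fos (1092 CPM in aged) and Atf3 (458 CPM against 187 CPM in aged nonclassical cells). Ier2 kept its direction, with 762 and 434 CPM in young and aged nonclassical monocytes, a log2 ratio of -0.81 (-1.05 to -0.57). Atf3 had a log2 ratio of 1.68 (1.16 to 2.25) in the whole gate and 0.59 (0.03 to 1.20) in nonclassical cells. In aged and aged-GA classical monocytes Junb was at 822 and 1166 CPM, a log2 ratio of 0.50 (0.41 to 0.60), and in nonclassical ones it was 0.25 (0.13 to 0.38).

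**Figure D3:**
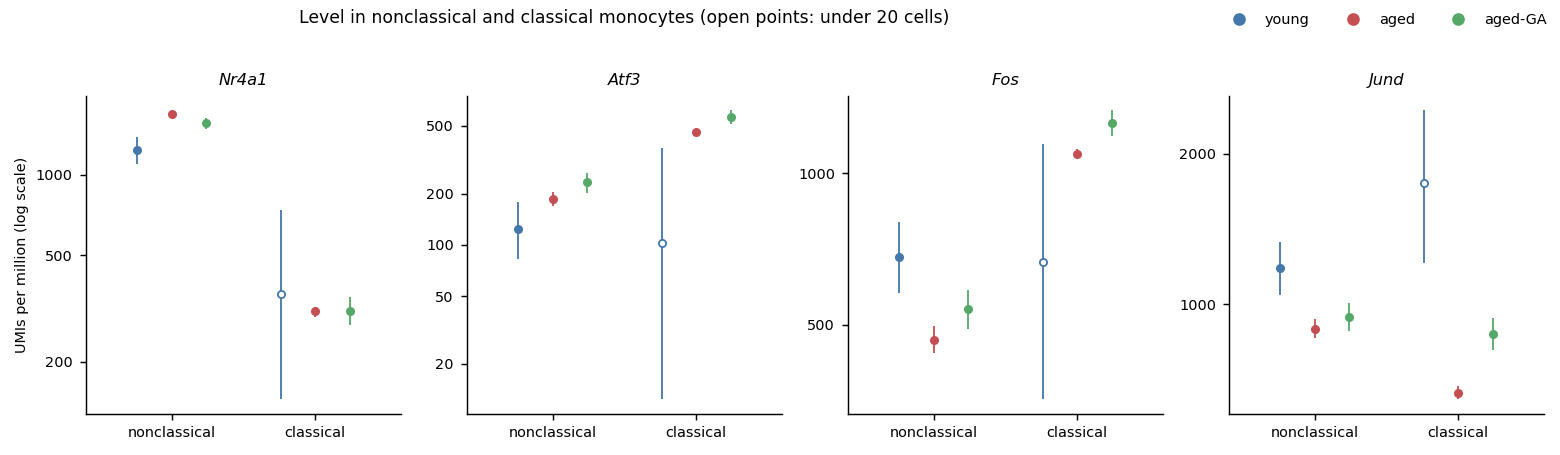
CPM (log scale) of Nr4a1, Atf3, Fos and Jund in nonclassical and classical monocytes of the 3 libraries, with exact 95% Poisson intervals of counting error. Open points are the 2 young classical monocytes. Nr4a1 was 1237 to 1685 CPM in nonclassical cells and 309 and 311 CPM in the aged and aged-GA classical cells.

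Over the 10 genes together, aged B cells stood lowest. All 10 passed the minimum of 20 expected UMIs in the smaller library, and their median log2 ratio was -0.49 for aged over young, beside 0.29 over all 9776 genes that passed. Of the 10, 4 (Jun, Junb, Jund and Ier2) were at least 1.5-fold lower, where 3.22% of all genes were, and 0 were at least 1.5-fold higher, where 25.4% of all genes were. With each ratio taken relative to the median of all genes, 8 were at least 1.5-fold lower. The background of 3.22% does not apply to that count. Below the ratio of Fosl2, the nearest to the cut of these 8, lay 7.90% of all genes. Below that of Egr1, which fell short of the cut, lay 9.96%. In aged-GA over aged B cells the median was 0.46 beside -0.05 over all genes. Jun and Egr1 were at least 1.5-fold higher (background 2.13%), and 0 were lower (background 2.68%). Relative to the median of all genes, 4 were at least 1.5-fold higher. Of all genes, 97.8% lay below Fosb, the nearest to the cut of these 4, and 97.3% below Junb, which fell short of it. The mitochondrial share, which differs between the libraries, moved with the level of Jun in aged B cells. Young, aged and aged-GA B cells with a share of 2.5 to 5% had 311, 174 and 271 CPM of Jun, and those of 5 to 7.5% had 313, 236 and 290 CPM, so aged stood lowest in both ranges. Junb had 2096, 798 and 1168 CPM in the first range and 1875, 612 and 1071 CPM in the second, again with aged lowest. Below 2.5%, where 24, 312 and 61 B cells lay, Junb was at 2358, 618 and 369 CPM, so there aged-GA stood below aged.

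T cells gave a mixed picture. Their median for aged over young was -0.04 beside 0.38 over all genes, with Atf3 and Nr4a1 at least 1.5-fold higher (background 32.5%) and 0 lower (background 3.60%). Relative to the median of all genes, 4 members were at least 1.5-fold lower and 2 higher, so the split of the calls in T cells turned on the scaling. The backgrounds above do not apply to these counts. Of all genes, 8.64% lay below Fos, the nearest to the cut of the 4, and 11.5% below Jund, which fell short of it. Below Nr4a1, the lesser of the 2 higher members, lay 95.1%. Aged-GA over aged, the median in T cells was 0.06 beside -0.07, with 0 higher (background 1.75%) and Atf3, Egr1 and Nr4a1 lower (background 3.72%). In NK cells the medians were -0.08 and 0.13 beside 0.06 and 0.04 over all genes. For aged over young, Nr4a1 was at least 1.5-fold higher (background 13.7%) and Ier2 lower (background 6.72%), and for aged-GA over aged 0 were higher (background 5.91%) and Atf3 and Nr4a1 lower (background 4.52%).

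In monocytes 9 members passed the minimum for aged over young, all but Egr1, with a median of -0.63 beside 0.05 over all genes. Atf3 was at least 1.5-fold higher (background 20.4%), and Jun, Jund, Fosl2, Ier2 and Nr4a1 were lower (background 15.7%). Most young monocytes were nonclassical and most aged ones classical. Within nonclassical cells the log2 ratio was -0.01 (-0.44 to 0.45) for Jun and -0.40 (-0.59 to -0.21) for Jund. There it was -0.81 for Ier2, 0.45 for Nr4a1 and 0.59 for Atf3, and Fosl2 did not pass the minimum. In aged-GA over aged monocytes the median was 0.28 beside 0.09, with 0 members higher (background 7.20%) and 0 lower (background 4.72%). In neutrophils the median was 0.27 beside 0.13, Jun and Atf3 were at least 1.5-fold higher (background 10.5%) and 0 were lower (background 2.28%). The share of all genes past the fold differed between gates, so counts are read only within a gate. The aged library enters both comparisons, which are therefore not independent.

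**Figure D4:**
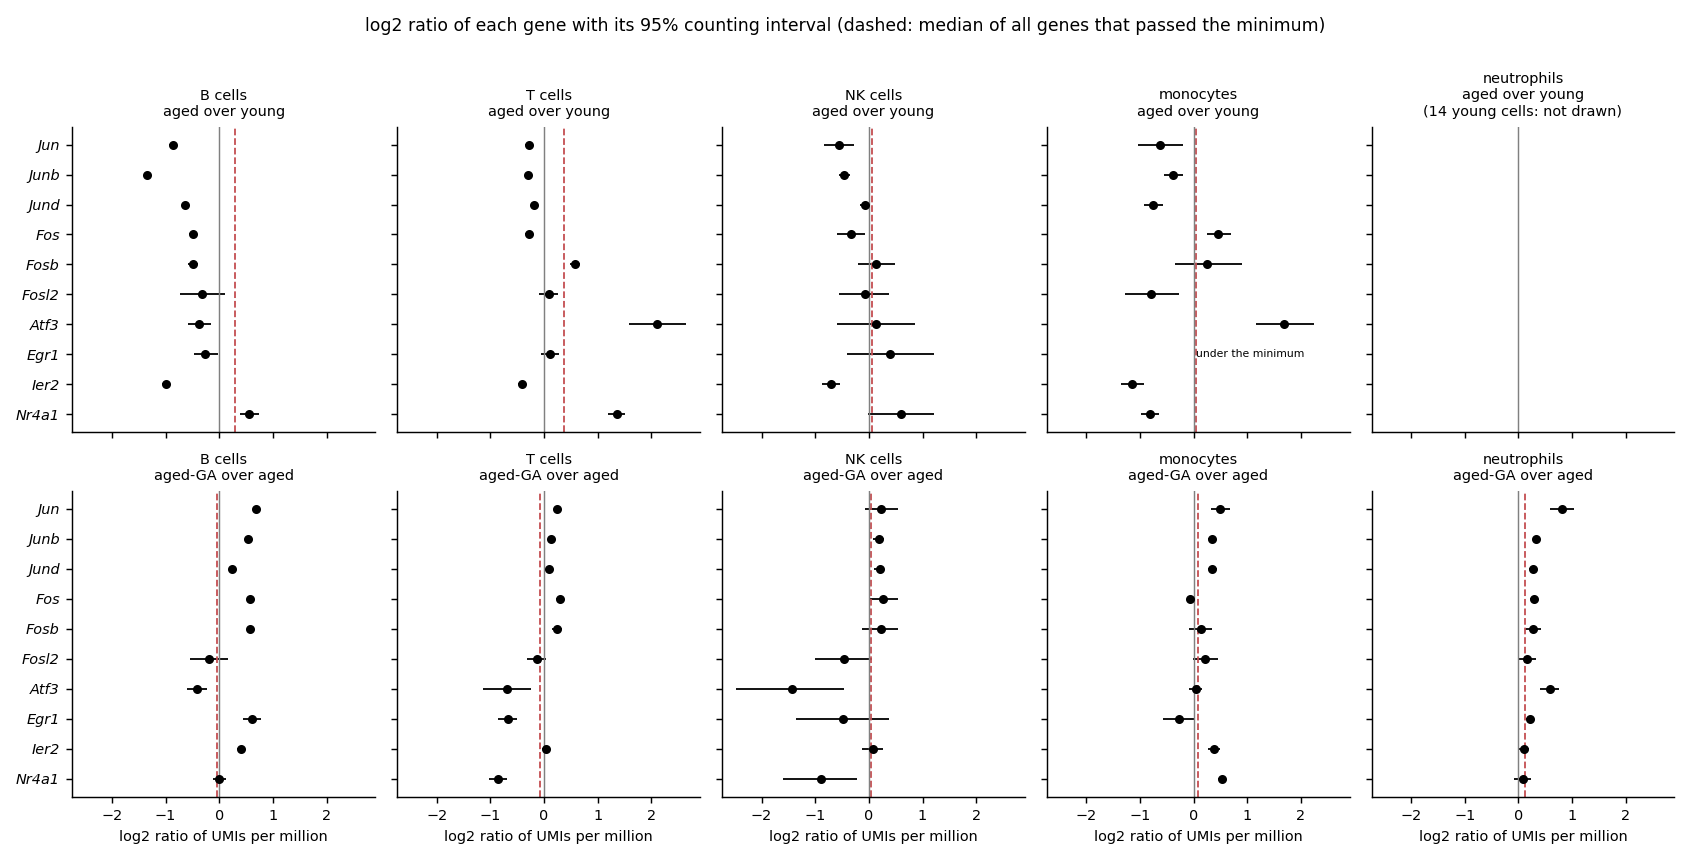
log2 ratios of CPM for the 10 genes, aged over young (upper row) and aged-GA over aged (lower row), in the 5 gates, without neutrophils for aged over young. Points carry exact 95% counting intervals, and the dashed line is the median of all genes that passed the minimum. In B cells 9 of the 10 points lie below 0 for aged over young, and in T cells Atf3 (2.11) and Nr4a1 (1.35) lie farthest above it.

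Many other immediate early genes and feedback inhibitors outside the 10 were also lower in aged than in young B cells. These lists were chosen with earlier results of these data known. Srf (0.45) and Pim1 (0.08), both among the other immediate early genes, had log2 ratios above 0. Of 22 other immediate early genes, 20 passed the minimum for aged over young in B cells, and 12 were at least 1.5-fold lower (background 3.22%) and 0 higher (background 25.4%), with a median log2 ratio of -0.79. Gadd45b, a growth arrest and stress gene, was at 328 and 92.7 CPM in young and aged B cells, a log2 ratio of -1.82, and Cd69, a surface marker of early activation, was at 441 and 184 CPM, a log2 ratio of -1.26. Feedback inhibitors of the same signals had 7 of 11 lower, 0 higher and a median of -0.60. Dusp2 and Dusp1, phosphatases that switch off MAP kinases, were at 772 and 226 CPM and at 475 and 174 CPM in young and aged B cells, with log2 ratios of -1.77 and -1.45. Of the upstream kinases and factors, 8 of 20 were at least 1.5-fold higher, where 25.4% of all genes were, and 0 lower, with a median of 0.40 beside 0.29 over all genes, and of 10 other AP-1 subunits 1 was higher (Mafg, 0.91) with a median of 0.52. Heat shock chaperones had 2 of 9 lower and a median of -0.36, of which Hspa1b (9.89 and 1.66 CPM) had the lowest log2 ratio, -2.57.

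For aged-GA over aged B cells the median of the other immediate early genes lay below that of the 10 genes. Of 22 that passed, 3 were higher (background 2.13%) and 0 lower (background 2.68%), with a median of 0.20, and those were Rgs1 (14.3 CPM in aged, 29.2 CPM in aged-GA), Nr4a3 (1.25 and 2.22 CPM) and Egr2 (1.45 and 2.47 CPM). Gadd45b and Dusp1, which stood far apart between young and aged, had log2 ratios of 0.03 and 0.10 here. Feedback inhibitors had 1 of 11 higher (Socs3, 19.0 and 36.9 CPM) and 1 lower (Spry2, 6.72 and 4.43 CPM), with a median of 0.10. The upstream list (0 of 20 in either direction, median -0.08), the other AP-1 subunits (0 of 10, median -0.07) and the heat shock chaperones (0 higher and 1 of 10 lower, median -0.02) stood near the median of all genes.

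In T cells 6 of 22 other immediate early genes were at least 1.5-fold higher for aged over young and 3 lower, where 32.5% and 3.60% of all genes were, with a median of -0.15. Nr4a2, a relative of Nr4a1, was at 14.3 and 29.6 CPM in young and aged T cells, and the kinase gene Pim1 was at 313 and 622 CPM. Gadd45b and Ier5 (325 and 151 CPM) were lower, with log2 ratios of -1.18 and -1.11. Among other AP-1 subunits Maf, a factor of effector and follicular helper T cells and one of the markers used here for memory T cells, was at 19.4 and 117 CPM, a log2 ratio of 2.59. Of 10 such subunits 2 were higher and 0 lower. Upstream kinases and factors had 11 of 20 higher (background 32.5%) and 0 lower (background 3.60%) with a median of 0.61 beside 0.38 over all genes, and feedback inhibitors 2 of 11 higher and 1 lower with a median of -0.07. Heat shock chaperones had 0 of 10 higher and 1 lower. Aged-GA over aged, 1 of 21 other immediate early genes (Cd69, 302 and 457 CPM) was higher (background 1.75%) and 0 were lower (background 3.72%), with a median of -0.03, and the medians of the other 4 lists lay between -0.17 and -0.04.

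NK cells had fewer list genes past the minimum. For aged over young, 1 of 17 other immediate early genes was higher and 3 were lower, where 13.7% and 6.72% of all genes were, with a median of -0.32. Feedback inhibitors had 0 of 11 higher and 3 lower (median -0.41), heat shock chaperones 0 of 8 higher and 4 lower (median -0.55), other AP-1 subunits 1 of 9 higher and 1 lower (median 0.01), and upstream kinases and factors 2 of 15 higher and 1 lower (median 0.21). Between aged-GA and aged NK cells the 5 medians lay between -0.18 and 0.18.

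The myeloid gates held these lists too. In monocytes 6 of 8 feedback inhibitors that passed were lower in aged than in young (background 15.7%), 0 were higher (background 20.4%) and the median was -1.37, with the NF-kappaB inhibitor gene Nfkbia at 3029 and 745 CPM. Of other immediate early genes 6 of 11 were lower and 0 higher there, with a median of -0.67. These values compare a young gate of mostly nonclassical cells with an aged gate of mostly classical ones. In neutrophils the aged-GA library had 6 of 21 other immediate early genes and 4 of 11 feedback inhibitors at least 1.5-fold higher and 0 of either list lower, where 10.5% and 2.28% of all genes were, with medians of 0.33 and 0.32. In monocytes 5 of 18 other immediate early genes were higher and 1 lower in aged-GA than in aged, and 2 of 10 feedback inhibitors were higher and 0 lower (background 7.20% higher and 4.72% lower), both with a median of 0.48. Cd69 was at 42.5 and 96.9 CPM in aged and aged-GA neutrophils, and Dusp2 at 45.9 and 96.4 CPM.

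**Figure D5:**
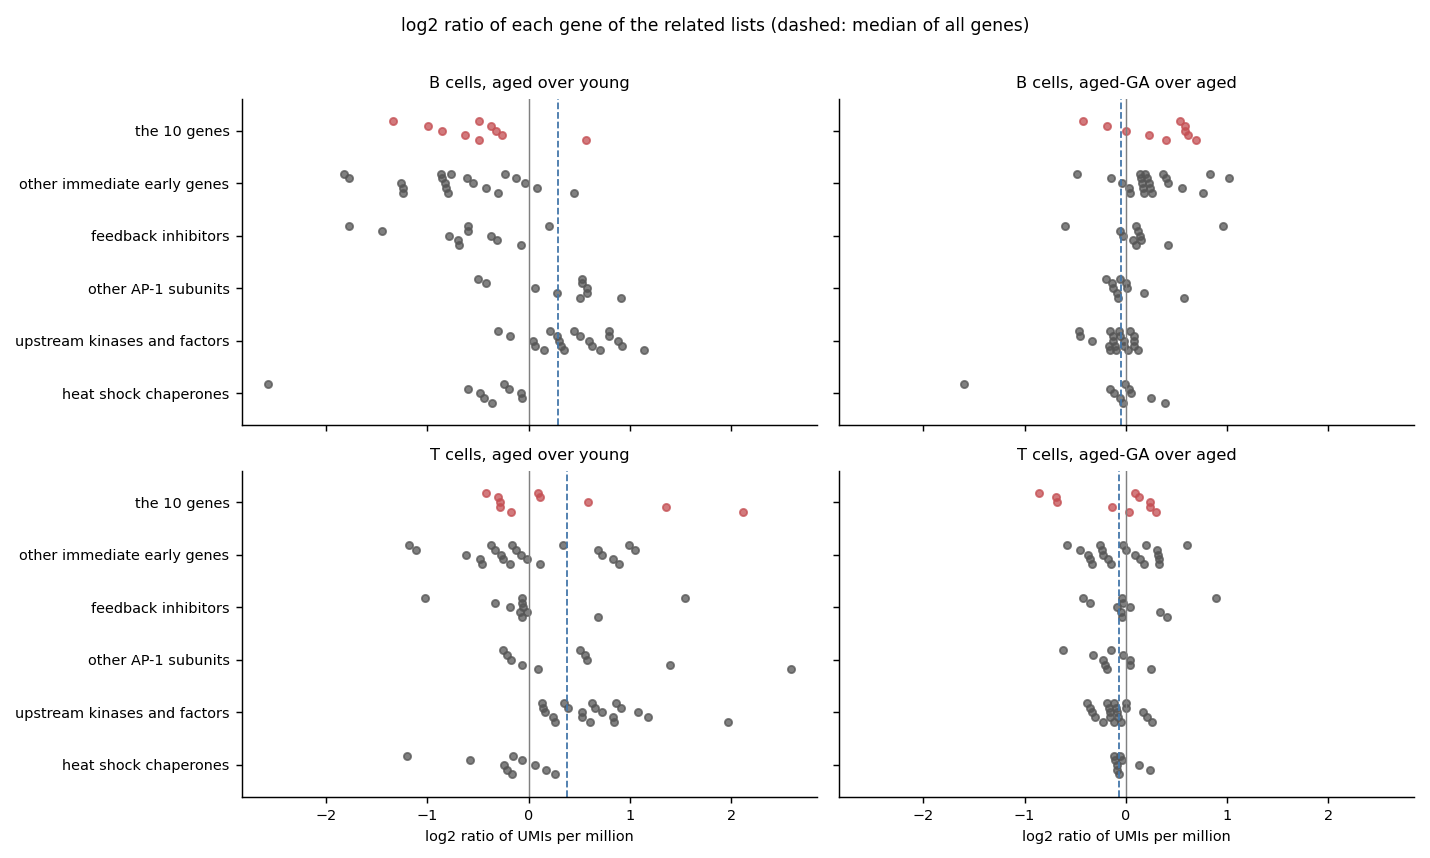
log2 ratios of CPM in B cells and T cells, aged over young (left) and aged-GA over aged (right), for the 10 genes and for the genes of 5 related lists that passed the minimum. Each point is a gene, its height within a row has no meaning, and the dashed line is the median of all genes. For aged over young B cells the medians were -0.49 for the 10 genes, -0.79 for other immediate early genes and 0.40 for upstream kinases and factors.

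Whether cells with 1 member held another was compared for 6 pairs of members in each gate and library, after thinning to 1000 UMIs. In 75 of the 90 cases the second gene was found more often in cells with the first, in 14 less often and in 1 equally often. Pairs of other genes were not counted, so there is no background for this count. The cases are not independent, since Fos was in most of the pairs. Some rest on few cells, such as 1 young neutrophil with a Jun UMI and 7 aged-GA NK cells with an Nr4a1 UMI. The 14 fell in monocytes (6), NK cells (3), T cells (2), neutrophils (2) and B cells (1), and none of these differences was tested. For example, 22.7% of young B cells with a Fos UMI held a Fosb UMI, against 16.0% of those without one, and the shares were 18.2% and 12.5% in aged and 23.5% and 18.7% in aged-GA. In aged neutrophils 72.0% of cells with a Fos UMI held an Egr1 UMI, against 43.8% of those without, and in aged-GA neutrophils the shares were 75.4% and 43.8%. In the other direction, 2.14% of young B cells with a Fos UMI held an Egr1 UMI, against 3.04% of those without, and in aged monocytes the shares with an Ier2 UMI were 24.0% and 30.6%. The summed UMIs of the 10 genes per 10000 UMIs of a cell had medians of 59.0, 32.5 and 42.4 over young, aged and aged-GA B cells. The middle 50% of cells lay between 41.4 and 79.3 in young, 21.3 and 46.4 in aged, and 29.0 and 58.5 in aged-GA, so the cells of the 3 libraries overlapped. The 10% of B cells with the most member UMIs held 23.1%, 26.8% and 26.3% of all member UMIs and 16.8%, 18.3% and 19.3% of all UMIs. Over the 15 gates and libraries ranked by level, neighbours had overlapping intervals in 13 of 14 pairs for Jun, 12 for Fosl2 and Egr1, 11 for Fosb, 10 for Fos, 8 for Ier2 and Nr4a1, and 7 for Junb, Jund and Atf3.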

How the data were processed

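PBMC libraries were made with a 10x 3′ version 3 kit, and the authors deposited UMI counts per gene and barcode, raw counts with no normalization, made with Cell Ranger (5.0.0 per the file headers; the submitters' processing notes give mm10). The study's methods name another version. Kept barcodes had no fewer than 200 genes, no more than 90% of the largest gene number in their library and mitochondrial UMIs up to 7.5% (8851 young, 10238 aged and 12648 aged-GA cells). A cell entered a gate with at least 3 marker UMIs from at least 2 markers, at least 4 times the marker UMIs of every other class and under 10% globin UMIs. The gates took 89.1%, 79.2% and 76.7% of kept cells. No doublet caller was run, since the gate leaves out cells with markers of 2 classes (2.33% of simulated B and T doublets entered a gate).

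UMIs were summed over the cells of a gate. CPM carry exact Poisson intervals, log2 ratios exact conditional intervals and shares exact binomial intervals, all at 95% and for counting error only, since amplified reads and cells of 1 library are not independent samples. A gene passed with 20 expected UMIs in the smaller library. Sums were tested on simulated data for aged over young B cells (9534 genes, 99.0% of 191 changed genes past the fold in their direction, 1.53% of unchanged genes past it). Members and lists were chosen with earlier results of these data known. List genes were named among the 3 largest and 3 smallest log2 ratios of a list, except Gadd45b and Dusp1 for aged-GA over aged B cells, which were chosen after their values were seen. Alternatives covered filters, gates, denominator, centring, pseudocount, cell weighting and the cells with the most member UMIs. Python 3.11.15, numpy 2.4.6, pandas 2.3.3, scipy 1.17.1 and matplotlib 3.10.9 were used.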

Additional observations from a re-analysis of the deposited data

Results flagged for a closer look

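Members with opposite directions in 2 gates are listed here, where both counting intervals lay on opposite sides of 0 and at least 1 of the ratios was past 1.5-fold. Neutrophils were left out for aged over young, because the young library held 14. Their ratios for Junb (0.31), Jund (0.57), Fos (1.30), Fosb (1.38), Egr1 (3.51) and Ier2 (0.49) also lay above 0, opposite to B cells. With 1 library per group none of these differences was tested. For aged over young, the log2 ratio of Atf3 was 2.48 higher in T cells than in B cells and 2.05 higher in monocytes than in B cells. The log2 ratio of Nr4a1 was 1.38 higher in B cells and 2.16 higher in T cells than in monocytes, and within nonclassical monocytes Nr4a1 took the direction of the lymphocytes (0.45). For aged-GA over aged, the log2 ratio of Atf3 was 1.00 higher in neutrophils than in B cells, 1.28 higher than in T cells and 2.02 higher than in NK cells. The log2 ratio of Egr1 was 1.29 higher in B cells than in T cells, and 0.89 higher in neutrophils than in T cells. The log2 ratio of Nr4a1 was 1.39 higher in monocytes than in T cells and 1.43 higher in monocytes than in NK cells, while it was -0.11 within nonclassical and 0.01 within classical monocytes. In red-cell barcodes Atf3, Egr1 and Nr4a1 were each lower in aged-GA than in aged (22.5 and 42.1, 81.6 and 188, 76.8 and 161 CPM of non-globin UMIs), and the part of free RNA in the T-cell and NK-cell values was not tested.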

How the results depend on the processing

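Of 1119 alternative values for single members, 892 stayed inside the counting interval of the value reported, 1057 kept its sign and 4 turned a difference past 1.5-fold. Atf3 in T cells, aged-GA over aged, was 0.55 in CD4 T cells and 0.08 in cells without Lyz2, S100a8 and S100a9 UMIs. Nr4a1 in monocytes, aged over young, was 0.06 among cells of 2000 to 8000 UMIs and 0.45 in nonclassical monocytes. The median over the members for aged over young B cells was -0.67 without the 5% of cells with the highest member share, -0.78 centred on all genes and -0.40 at a mitochondrial share of 2.5 to 5%. For aged over young T cells it was -0.15 with the stricter gate, -0.26 without mitochondrial, ribosomal, globin and receptor genes in the total, -0.42 centred, -0.17 in CD8 T cells, -0.22 in memory T cells and 0.06 at that mitochondrial share. For aged-GA over aged it was in T cells 0.13 at 2000 to 8000 UMIs, 0.13 with the reduced total, 0.14 centred, 0.16 in CD4 and -0.03 in naive T cells, in monocytes 0.08 at 2000 to 8000 UMIs and 0.12 in nonclassical cells, and in neutrophils 0.56 at 2000 to 8000 UMIs and 0.15 centred. Causes of these shifts were not tested. The mitochondrial window, the cells without myeloid UMIs and the monocyte subsets were chosen after seeing the data, and the aged over young ratios of classical monocytes were not used, since 2 young cells lie behind them. With 50 expected UMIs as the minimum, all 18 background shares moved outside their binomial intervals. No paired analysis was possible because each group has 1 library.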

Other observations

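Cells with basophil markers (Mcpt8, Cpa3, Gata2 and Ms4a2), which the 5 gates leave out, numbered 77 in aged, 16 in aged-GA and 0 in young. Their Egr1 level was 5875 CPM (5551 to 6213) in aged and 4139 CPM (3585 to 4754) in aged-GA, above the 1417 and 1638 CPM of neutrophils. Junb was at 4816 and 5071 CPM, Ier2 at 3799 and 4181 CPM, Fosb at 1336 and 1780 CPM and Jun at 1270 and 2670 CPM in these cells, again above the neutrophil and lymphocyte levels of the same libraries. Atf3 had 1 UMI in the aged and 7 UMIs in the aged-GA basophil gate. With so few cells in each library these are values only, and no comparison between libraries was made.

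Over B, T and NK cells in the 3 libraries (9 points, each gene centred on its mean in a gate), the genes whose profile was most like the mean of the members were Rbbp8 (Pearson r = 0.94), Nup98 (0.92), Arl6ip5 (0.91), Il2rg (0.89), Thoc1 (0.88) and Hnrnpc (0.88), among 4742 genes. The 3 gates of a library share its free RNA and handling, so the 9 points are not independent and the values describe these libraries alone. Among the members themselves Junb (0.72), Fosl2 (0.67), Ier2 (0.66) and Jun (0.65) lay nearest to that mean and Nr4a1 (0.16) farthest from it. Each member is part of the mean, so these values are not independent of it.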
